A study of Mus musculus with 20 samples.

Results

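The genes described here are multicopy genes of the mouse 2-cell embryo: the Zscan4, Tdpoz and Usp17l families, the PRAME-like families Pramef and Pramel, and the single symbols B020004J07Rik and BB287469. They were chosen by symbol alone, through a pattern for these family names. The rule uses no measured value, but it was chosen with earlier results of these data known. The pattern found 28 of the 23309 symbols in the files: 6 Zscan4, 5 Tdpoz, 5 Usp17l, 6 Pramel and 4 Pramef symbols and the 2 single ones. Tdpoz5 and BB287469 have 2 loci each, whose values were added.

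Mouse embryos start their own transcription in earnest at the 2-cell stage, while the mRNAs stored in the oocyte are cleared. Zscan4 genes encode proteins with a SCAN domain and zinc fingers, and in mouse embryonic stem cells they are known for telomere maintenance and as markers of a rare state that resembles the 2-cell embryo. Tdpoz genes encode relatives of the ubiquitin ligase adaptor SPOP with TRAF and POZ domains, Usp17l genes encode deubiquitinating enzymes, and PRAME-like genes encode leucine-rich repeat proteins found mainly in germ cells and early embryos.

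The Btg4 experiment sets samples labelled Btg4-/- against wild type at 4 stages, with 2 libraries per group and 16 in all: germinal vesicle (GV) oocytes, held in meiotic prophase, MII oocytes, held in the metaphase of meiosis II, zygotes, and 2-cell embryos. In the Erk experiment, Erk-/- is set against wild type in GV oocytes and in MII oocytes, with 1 library for each. The mice are of the ICR strain; 60 oocytes or embryos went into every sample, taken from females of 21 to 23 days after PMSG and hCG and, for embryos, mating. The labels give neither the alleles, nor the father's genotype, nor the hour of collection, and their treatment text names only wild-type and Btg4-/- females. Nothing says that the 2 libraries of a group came from separate females, so a p-value here reflects only how much these particular samples varied, and that variation may be technical.

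Btg4 encodes an adaptor of the CCR4-NOT deadenylase that is known for the clearance of maternal mRNA. Its own level in FPKM (fragments scaled to transcript length and to the mapped fragments of the library) did not follow the labels at all stages: 2-cell libraries had 3514 and 3632 FPKM when labelled Btg4-/-, against 1147 and 964 FPKM in wild type, and MII libraries had 172 and 191 FPKM, against 415 and 406 FPKM. Which part of the gene the allele removes is not given, so gene-level values do not check the genotype, and groups are called here by their labels. The 2 experiments also ordered GV and MII oocytes in opposite ways: wild-type Btg4 was at 1450 and 1673 FPKM at GV and 415 and 406 FPKM at MII in one, and at 216 FPKM at GV and 2987 FPKM at MII in the other. Relative depth, read from the width of the deposited intervals with a wild-type GV library set to 1, was 0.699 to 1.28 over the 16 Btg4 libraries and 1.52 to 2.09 over the Erk libraries. All 8 oocyte markers were above 1 FPKM in every 2-cell library. Granulosa and cumulus markers summed to 3.71 and 2.53 FPKM in 2-cell libraries labelled Btg4-/- and to 13.9 and 15.1 FPKM in wild type, there mostly from Amhr2. Foxl2, Amh, Inhba and Inhbb were listed at 0 in all 4, while Cyp19a1 had 2.51 and 1.17 FPKM, against 0.174 and 0.994 FPKM. At GV these markers summed to 49.8 and 59.2 FPKM when labelled Btg4-/-, against 24.9 and 29.7 FPKM, with Inhba the largest part. Blood markers at MII summed to 1.53 and 0 FPKM, against 85.0 and 50.3 FPKM. The part of such differences in the values of the members was not tested.

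The RefSeq promoters of copies resemble each other in the Zscan4 and Usp17l families, but most pairs within the other families do not. Promoter entries existed for 22 of the 28 members, 4 of them under a newer RefSeq symbol. Among the 4 Zscan4 promoters, identity over the 250 bases before the annotated start was 73.6% to 94.8%, with Zscan4b and Zscan4f the closest pair. The 6 Usp17l pairs ranged from 48.6% to 80.5%, with a median of 62.7%. The 198 pairs drawn from different families had a median of 46.2% and a maximum of 78.7%. Within Tdpoz, Pramel and Pramef the medians were 46.8%, 46.5% and 45.1%, and the highest pairs 63.4%, 81.5% and 47.8%. The 100 bases before the start of 10 members (GRCm38.p6, 5′ to 3′ on the gene's strand) are given because the results turn on these genes. Capitals mark TATAAA, the core of a TATA box, or GGATTA, the reverse complement of TAATCC, the site of bicoid-class homeodomain factors such as OTX2.
Zscan4b, chr7:10905051-10905150, minus strand: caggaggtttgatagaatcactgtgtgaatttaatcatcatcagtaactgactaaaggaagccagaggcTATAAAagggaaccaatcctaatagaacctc
Zscan4c, chr7:11005645-11005744, plus strand: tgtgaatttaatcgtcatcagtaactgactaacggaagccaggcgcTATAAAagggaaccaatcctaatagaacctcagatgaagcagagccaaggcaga
Zscan4d, chr7:11166149-11166248, minus strand: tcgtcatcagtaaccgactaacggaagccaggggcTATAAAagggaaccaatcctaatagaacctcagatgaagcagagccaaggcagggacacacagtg
Zscan4f, chr7:11397815-11397914, plus strand: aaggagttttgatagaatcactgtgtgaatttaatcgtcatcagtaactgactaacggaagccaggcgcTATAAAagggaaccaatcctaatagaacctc
Usp17lb, chr7:104842584-104842683, minus strand: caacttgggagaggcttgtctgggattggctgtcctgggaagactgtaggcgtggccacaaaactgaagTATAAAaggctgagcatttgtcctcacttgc
Usp17lc, chr7:103416596-103416695, plus strand: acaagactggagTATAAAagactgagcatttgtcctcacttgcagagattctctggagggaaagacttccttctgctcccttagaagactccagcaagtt
Tdpoz4, chr3:93796298-93796397, plus strand: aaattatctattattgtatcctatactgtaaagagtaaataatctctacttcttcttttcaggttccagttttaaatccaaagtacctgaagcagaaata
Tdpoz5, chr3:93961315-93961414, minus strand: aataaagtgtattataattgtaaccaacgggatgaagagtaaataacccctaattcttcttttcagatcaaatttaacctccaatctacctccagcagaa
BB287469, chr12:87816477-87816576, plus strand: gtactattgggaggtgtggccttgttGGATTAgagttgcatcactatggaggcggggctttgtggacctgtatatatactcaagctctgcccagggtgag
Pramef12, chr4:144408465-144408564, minus strand: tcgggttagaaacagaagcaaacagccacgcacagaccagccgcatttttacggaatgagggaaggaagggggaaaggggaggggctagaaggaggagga
All 4 Zscan4 promoters hold TATAAA, whose first base lies 31 bases before the annotated start of Zscan4b and Zscan4f, 54 before that of Zscan4c and 65 before that of Zscan4d. Usp17lb holds the same letters 31 bases before its start and Usp17lc 88 bases before. Searched on both strands of the 250 bases, TATAAA occurred in 7 of the 22 member promoters (31.8%), all of them Zscan4 or Usp17l, against 12.4% of the 32851 promoters in the table. TAATCC occurred in 6 (27.3%), among them BB287469 with 2 matches and B020004J07Rik, against 6.25% of all. Neither was found in the 250 bases of Pramef12, Tdpoz4 or Tdpoz5, and these are matches of letters only. Related copies are counted separately, so the member percentages do not rest on independent sequences.

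Shared sequence also limits what a value of a single copy means. Words of 50 bases were counted in GENCODE vM21 transcripts on the sense strand; the read length of the libraries is not given in the sources used here. Of the words of a Zscan4 gene, 47.9% (Zscan4d) to 89% (Zscan4e) occurred in another Zscan4 member. For Usp17l genes this was 15.3% to 50.4%. Tdpoz members shared at most 3.59% with each other, but all words of Tdpoz5 occurred in Gm10697, and 94.3% of those of BB287469 occurred in Gm4027. Pramef12, Pramef8, Pramel1 and Pramel6 shared 0 words with any other gene. The authors' estimates can therefore move reads between copies, and the family sum is the value given first. A sum does not settle reads shared with genes outside it. Of the words of a Tdpoz gene, 41.2% (Tdpoz4) to 100% (Tdpoz5) occurred in some other gene. Of those of Pramel4, 85% occurred in Gm13102.

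**Figure D1:**
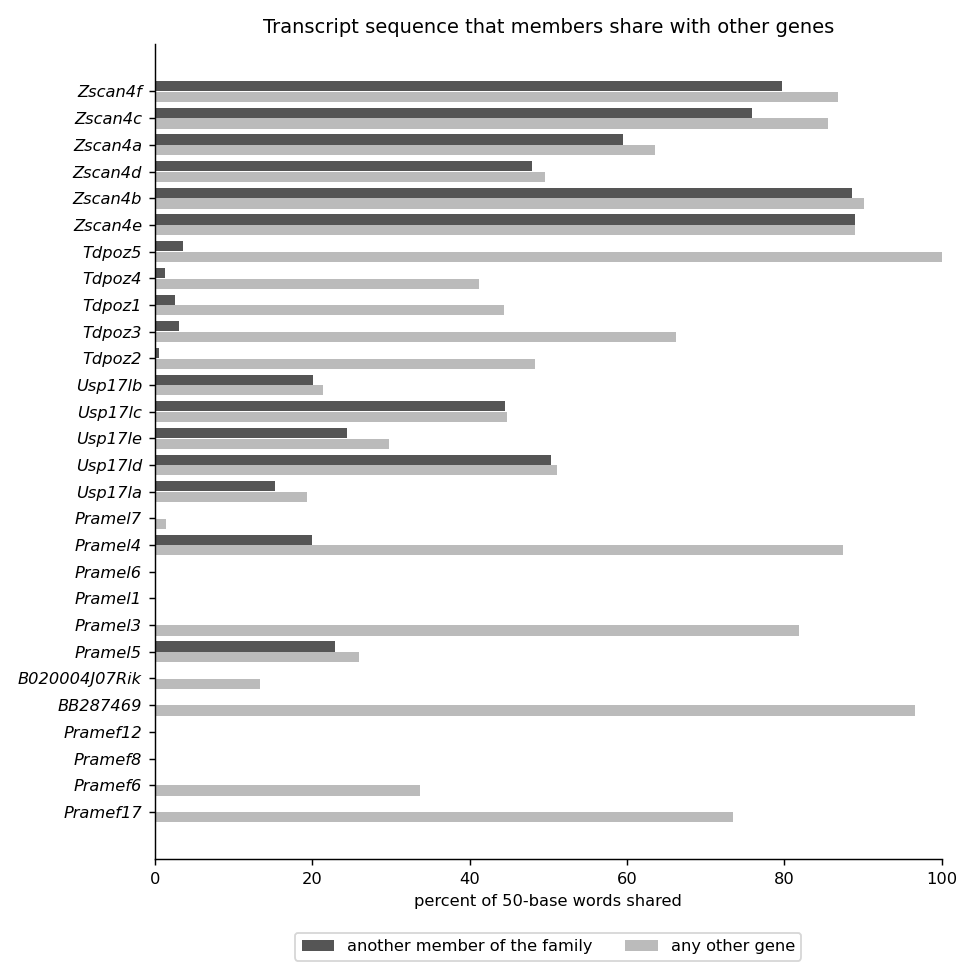
Percent of the distinct 50-base words in the transcripts of each member that also occur in another member of its family (dark bars) or in any other gene (light bars). Zscan4 members share most of their words within the family, 47.9% to 89%, whereas Tdpoz5 shares 100% with genes outside the member set, and Pramef12 and Pramef8 share 0 with any gene.

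In the Btg4 experiment, 6 of the 7 families were below 10 FPKM in all libraries but the wild-type 2-cell pair, where they reached 32.8 to 305 FPKM; in the 2-cell embryos labelled Btg4-/- they stayed at a few percent of that level. The Tdpoz sum had 6.72 and 8.64 FPKM in 2-cell libraries labelled Btg4-/-, against 305 and 219 FPKM in wild type. The Zscan4 sum had 7.75 and 5.78 FPKM, against 92.8 and 77.8 FPKM, and the Usp17l sum 1.46 and 1.68 FPKM, against 64.2 and 32.8 FPKM. The groups lay far apart in each of these families. The Pramel sum had 0.224 and 2.15 FPKM in embryos labelled Btg4-/-, against 89.0 and 78.9 FPKM in wild type. B020004J07Rik, a PRAME-like gene that RefSeq now names Pramel17, had 0.308 and 1.77 FPKM, against 56.7 and 35.5 FPKM. BB287469 had 6.30 and 7.60 FPKM, against 106 and 85.4 FPKM. As a share of the wild-type mean, the labelled Btg4-/- mean was 7.93% for Zscan4, 7.25% for BB287469, 3.23% for Usp17l, 2.93% for Tdpoz, 2.25% for B020004J07Rik and 1.41% for Pramel. The log2 difference of log2(FPKM + 1), a scale that understates changes near or below 1 FPKM, was -3.48 ± 0.351 for Zscan4 (SE; adjusted p = 4.26e-06, limma) and -4.91 ± 0.388 for Tdpoz (adjusted p = 4.84e-07). It was -4.19 ± 0.334 for Usp17l (adjusted p = 5.09e-07) and -5.43 ± 0.378 for Pramel (adjusted p = 1.49e-07), and B020004J07Rik and BB287469 stood at -4.59 ± 0.336 and -3.60 ± 0.277 (adjusted p = 2.46e-07 and 3.81e-07). Every symbol in the Usp17l and Pramel sums reached a mean of 1 FPKM in wild-type 2-cell embryos alone. These sums thus hold only members whose direction was fixed by the filter of 1 FPKM, and their p-values are not independent support. In a bulk sample, fewer embryos that express a gene and less RNA in each embryo cannot be told apart.

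**Figure D2:**
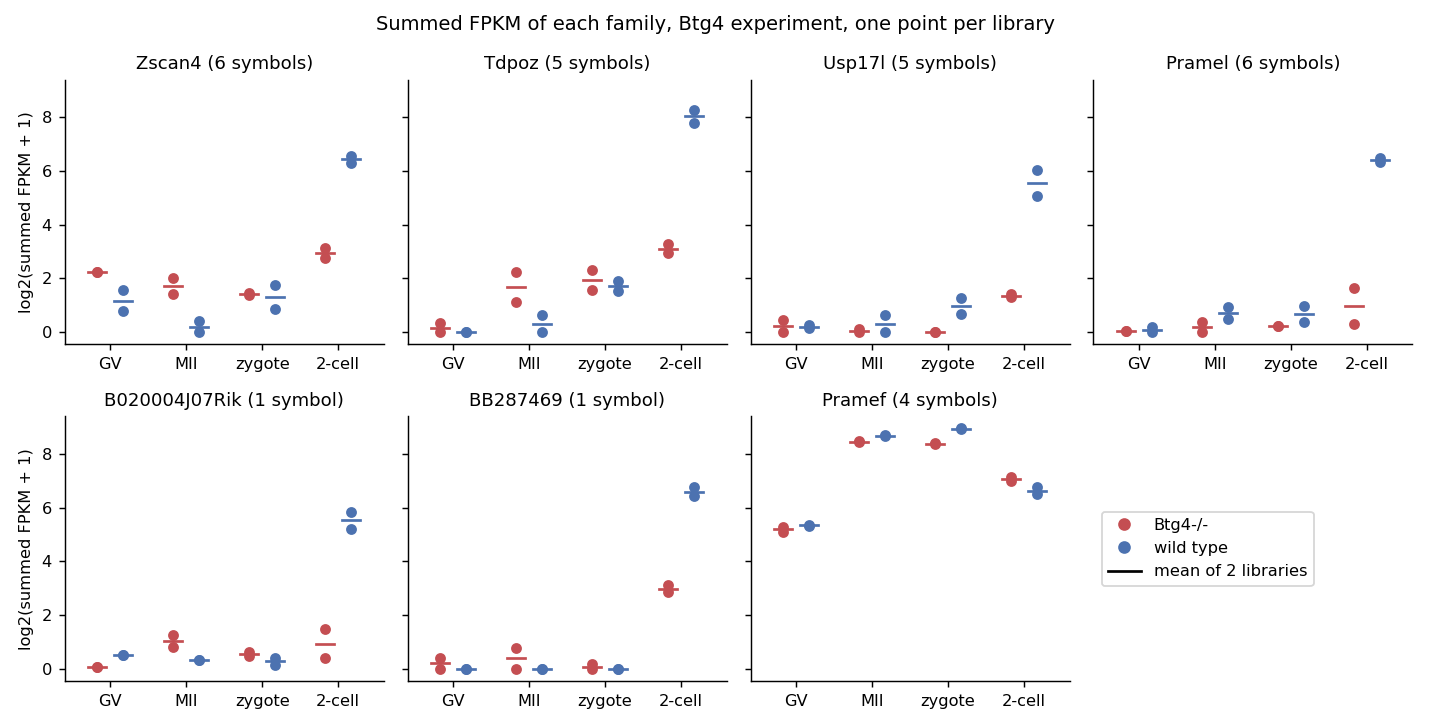
Each panel plots log2(summed FPKM + 1) of one family against stage, with 1 point per library of the Btg4 experiment and a bar at the mean of 2 libraries. Wild-type 2-cell libraries stand far above all other libraries in 6 panels (Tdpoz at 305 and 219 FPKM), while Pramef peaks in MII oocytes and zygotes in both genotypes.

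Other measures moved with genotype at the 2-cell stage. All FPKM of a library summed to 453813 and 441998 in the libraries labelled Btg4-/-, against 299983 and 302000 in wild type. The 8 oocyte markers summed to 10031 and 9654 FPKM, against 2993 and 2874 FPKM, and each of the 8 was higher in the labelled Btg4-/- embryos; Gdf9, the oocyte growth factor, had 1117 and 1001 FPKM, against 191 and 176 FPKM. The part of these differences, and of a difference in developmental timing, in the values of the 2-cell genes was not tested.

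Of the 28 symbols, 26 were lower in 2-cell embryos labelled Btg4-/- (background 26.4% of 12311 symbols tested), 1 was higher (background 22.6%) and 1 did not pass. The median log2 difference was -2.93, against -0.05 over all symbols tested. All 28 entered the fit, but 16 passed the filter of 1 FPKM only through the wild-type 2-cell group, where they are high and so had to differ; of the 12 that passed through other groups too, 10 were lower, 1 higher and 1 did not pass. The 2 symbols that were not lower were Pramef12 and Pramef8.

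Among Zscan4 genes, Zscan4f (mm9 chr7:11983264-11987667) had the highest level, with 2.16 and 2.23 FPKM in 2-cell embryos labelled Btg4-/- and 28.3 and 24.1 FPKM in wild type. Zscan4c, the copy known as active in mouse embryonic stem cells, had 2.22 and 1.42 FPKM, against 18.8 and 16.7 FPKM. Zscan4d, known as the copy most transcribed in mouse 2-cell embryos, had 0.322 and 0.415 FPKM, against 14.0 and 10.5 FPKM. Their log2 differences were -3.08, -2.75 and -3.26 (SE 0.264 to 0.275, adjusted p = 2.69e-06 or less). Zscan4d thus made up 4.2% of the family's FPKM in 1 labelled Btg4-/- library and 7.2% in the other, against 15.1% and 13.4% in wild type. Zscan4a, which RefSeq lists as a pseudogene, had 1.16 and 0.920 FPKM, against 14.6 and 10.5 FPKM. Zscan4e had 1.16 and 0.667 FPKM, against 8.18 and 7.73 FPKM, and Zscan4b had 0.734 and 0.126 FPKM, against 8.90 and 8.36 FPKM. All 6 copies were low together in both libraries labelled Btg4-/-. Zscan4b and Zscan4e entered the fit only through wild-type 2-cell embryos, so the filter fixed their direction.

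The Tdpoz family was led by Tdpoz5 (mm9 chr3:93764214-93765236 and chr3:93875544-93876566), with 5.35 and 2.18 FPKM in 2-cell embryos labelled Btg4-/-, against 161 and 126 FPKM in wild type (log2 difference -5.00 ± 0.411, adjusted p = 6.84e-07). Tdpoz4 had 1.20 and 5.72 FPKM, against 90.8 and 54.4 FPKM (-4.21 ± 0.402, adjusted p = 2.51e-06). The 2 libraries labelled Btg4-/- put these copies in opposite orders, Tdpoz5 above Tdpoz4 in library 1 and below it in library 2, while both wild-type libraries put Tdpoz5 first. Tdpoz1 had 0.173 and 0.744 FPKM, against 34.7 and 24.7 FPKM. Tdpoz3 was listed at 0 in both libraries labelled Btg4-/-, against 13.0 and 11.5 FPKM, and so was Tdpoz2, against 5.85 and 2.02 FPKM. For these lesser copies the wild-type pair was again the only one above 1 FPKM, so the filter fixed their direction.

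Usp17lb (mm9 chr7:111988826-111991018) was the highest Usp17l gene, with 0.302 and 0.163 FPKM in 2-cell embryos labelled Btg4-/- and 26.7 and 18.8 FPKM in wild type (-4.25 ± 0.201, adjusted p = 6.26e-09). Usp17lc had 0.609 and 0 FPKM, against 16.4 and 6.45 FPKM (adjusted p = 8.17e-06). Usp17le had 0.324 and 1.51 FPKM, against 9.59 and 3.05 FPKM; its difference of -1.84 fell to -1.15 without wild-type library 1 and missed the threshold when the 2-cell libraries were fitted alone (adjusted p = 0.0531). Usp17ld was listed at 0 in both libraries labelled Btg4-/-, against 9.10 and 3.08 FPKM, and Usp17la had 0.223 and 0 FPKM, against 2.44 and 1.49 FPKM. In wild type, library 1 had the higher value for every Usp17l copy. Every Usp17l symbol entered the fit only through wild-type 2-cell embryos, so the filter fixed the direction of these differences.

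Pramel7 and Pramel6, known in the mouse for a role in the naive pluripotent state, were high in wild-type 2-cell embryos alone. Pramel7 (mm9 chr2:87329245-87332575) had 0 and 0.827 FPKM in embryos labelled Btg4-/-, against 30.8 and 37.5 FPKM (-4.69 ± 0.257, adjusted p = 1.97e-08). Pramel6 was listed at 0 in both, against 17.9 and 13.5 FPKM (adjusted p = 5.16e-09). Both lie on chromosome 2, apart from the chromosome 4 cluster that holds Pramel1, Pramel4, Pramel5 and the Pramef genes. Pramel4 had 0.0413 and 0.844 FPKM, against 18.4 and 16.7 FPKM. Pramel1 and Pramel5 were listed at 0 in both libraries labelled Btg4-/-, against 15.6 and 7.11 FPKM and 3.57 and 1.58 FPKM in wild type. Pramel3, on chromosome X, had 0.183 and 0.480 FPKM, against 2.90 and 2.53 FPKM. Every Pramel symbol entered the fit only through wild-type 2-cell embryos, so the filter fixed the direction of these differences.

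**Figure D3:**
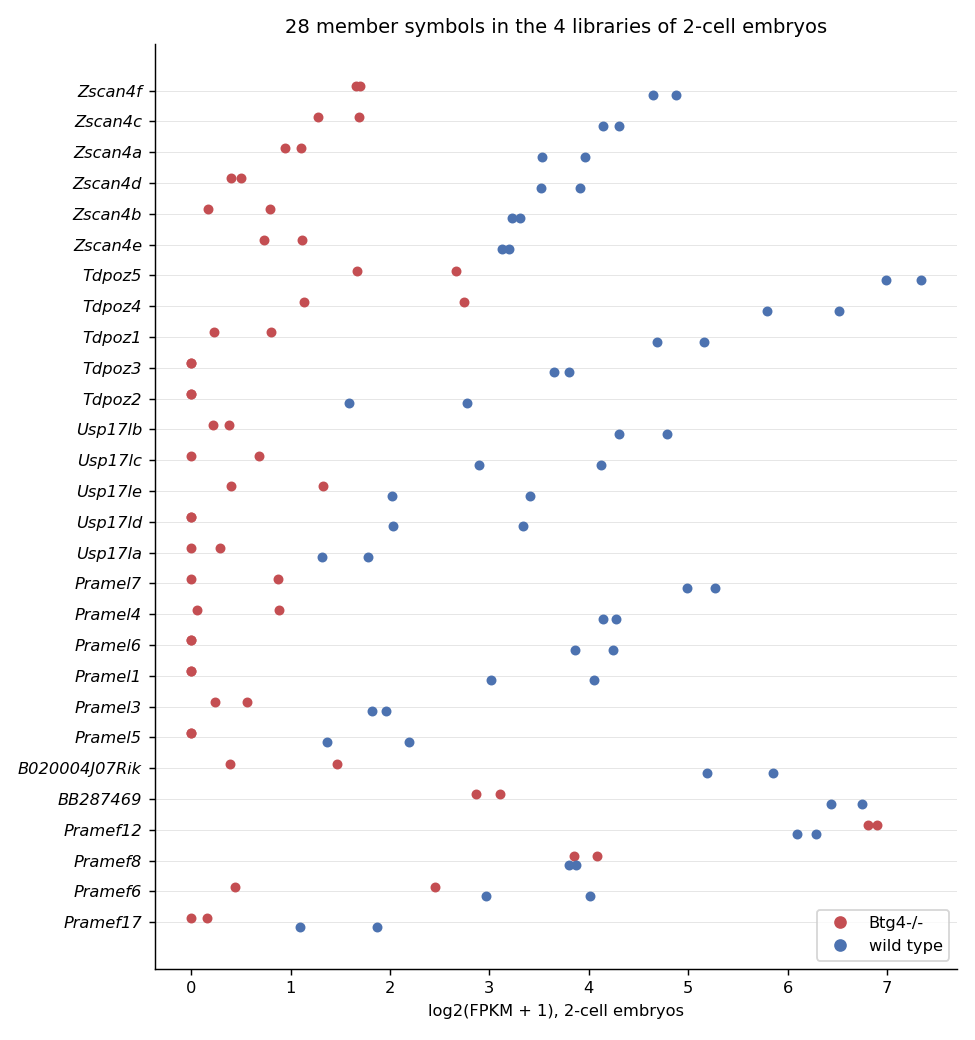
Log2(FPKM + 1) of the 28 symbols in 2-cell embryos, with 2 points per genotype and symbols grouped by family. The labelled Btg4-/- points lie to the left of the wild-type points for 26 symbols; Pramef12 lies to the right (118 and 111 FPKM, against 76.9 and 67.2 FPKM) and Pramef8 overlaps.

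Among the Pramef symbols, Pramef12 and Pramef8 were already present in oocytes. Pramef12 (mm9 chr4:143981577-143998367), known in the mouse for the maintenance of spermatogonial stem cells, was lower in the labelled Btg4-/- libraries up to the zygote and higher at the 2-cell stage. At GV it had 23.5 and 19.0 FPKM, against 33.4 and 33.3 FPKM in wild type (-0.64 ± 0.116, adjusted p = 0.006; 0.0544 without labelled Btg4-/- library 2). At MII it had 311 and 322 FPKM, against 394 and 402 FPKM (-0.33, adjusted p = 0.0301). That MII call was lost without any one of the 4 MII libraries (adjusted p 0.0715 to 0.116). In zygotes it had 298 and 307 FPKM, against 480 and 473 FPKM (-0.65, adjusted p = 0.000469). At the 2-cell stage it had 118 and 111 FPKM, against 76.9 and 67.2 FPKM (0.67, adjusted p = 0.00039). The groups did not overlap at any of the 4 stages, but the share of all symbols without overlap was not counted. Quantile normalization ended the calls at GV (adjusted p = 0.0791) and at 2-cell (0.22, adjusted p = 0.14).

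Pramef8 was higher in the labelled Btg4-/- libraries before the 2-cell stage. It had 13.0 and 12.9 FPKM at GV, against 5.59 and 6.27 FPKM in wild type (1.02 ± 0.189, adjusted p = 0.00688; 0.0641 without wild-type GV library 1). At MII it had 27.3 and 25.5 FPKM, against 7.39 and 11.1 FPKM (1.44, adjusted p = 3.09e-05). In zygotes it had 22.5 and 24.9 FPKM, against 7.84 and 7.88 FPKM (1.48, adjusted p = 3.34e-05). At the 2-cell stage the groups overlapped, with 15.96 and 13.4 FPKM, against 12.9 and 13.7 FPKM (0.13, adjusted p = 0.606). The same sign in the 2 oocyte stages and the zygote set it apart from Pramef12, whose difference was negative at each of them.

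Pramef17 was listed at 0 in all 4 GV libraries. At MII it had 2.61 and 2.33 FPKM in oocytes labelled Btg4-/- and was listed at 0 in both wild-type libraries (1.79 ± 0.291, adjusted p = 0.000183), and in zygotes it had 3.18 and 2.96 FPKM, against 0.241 and 1.17 FPKM (1.31, adjusted p = 0.00239). At 2-cell it had 0.117 and 0 FPKM, against 2.65 and 1.13 FPKM (-1.40, adjusted p = 0.00148). Of its words, 73.5% occur in Gm13128. Pramef6 had 4.46 and 0.357 FPKM at 2-cell, against 15.1 and 6.81 FPKM (-2.04, adjusted p = 0.00964). Its call rested on single libraries: it was lost without labelled Btg4-/- library 2 (-1.04, adjusted p = 0.127) and without wild-type library 1 (-1.52, adjusted p = 0.117). Since Pramef12 holds most of the family's FPKM, the Pramef sum followed it, with 139 and 125 FPKM at 2-cell, against 108 and 88.8 FPKM (0.43 ± 0.113, adjusted p = 0.0072). That difference turned to -0.09 under quantile normalization (adjusted p = 0.571) and missed the threshold without labelled Btg4-/- library 1 (0.35, adjusted p = 0.0521).

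**Figure D4:**
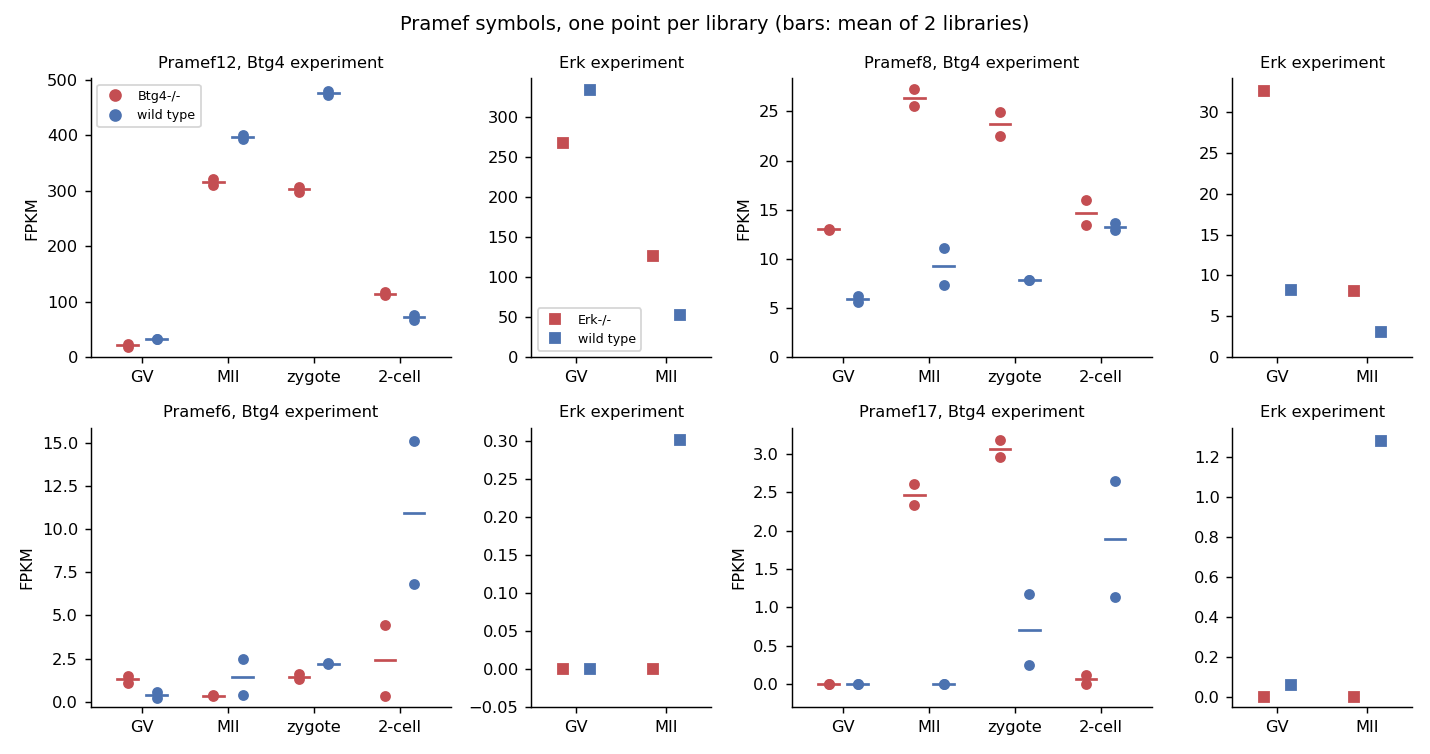
FPKM of the 4 Pramef symbols by stage, with 1 point per library; round points and mean bars are the Btg4 experiment, squares the Erk experiment, and each panel has its own axis. Pramef12 is highest in wild-type zygotes (480 and 473 FPKM) and Pramef8 is higher in the labelled Btg4-/- libraries at GV, MII and zygote.

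Before the 2-cell stage most members had too little signal to compare. A mean of 1 FPKM in either genotype was reached by 5 of the 28 at GV, 6 at MII and 6 in zygotes, and 11, 11 and 7 were listed at 0 in all 4 libraries of these stages, so the counts of calls are not read against the background. At GV 3 of the 28 symbols passed in either direction (background 7.9%): Pramef8, Pramef12 and Zscan4f, which had 1.37 and 0.956 FPKM when labelled Btg4-/-, against 0 and 0.181 FPKM (0.99 ± 0.275, adjusted p = 0.0465). The Zscan4f call was lost under 14 of the alternatives tried, with adjusted p up to 0.232. The Zscan4 sum stood at 3.74 and 3.68 FPKM at GV, against 0.705 and 1.95 FPKM, without passing (1.07, adjusted p = 0.088). No GV difference of the other 6 sums passed (adjusted p from 0.486 to 1). All symbols had a median of -0.12 at GV, and 18.3% of the calls over all of them were higher; with median-of-ratios scaling the median was 0 and the share 53.5%, and the Zscan4 sum passed (1.28, adjusted p = 0.0414).

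At MII 6 symbols passed in either direction (background 52.4%): Pramef8, Pramef17, Tdpoz5 and Zscan4d were higher in oocytes labelled Btg4-/-, and Pramef12 and Pramel1 were lower. The Zscan4 sum had 1.65 and 3.05 FPKM, against 0 and 0.326 FPKM in wild type (1.51 ± 0.351, adjusted p = 0.00282; 0.0378 at most under the alternatives). Zscan4d had 0.743 and 1.19 FPKM, against 0 and 0.0977 FPKM (adjusted p = 0.0136), a call lost without labelled Btg4-/- MII library 2 (0.095) or wild-type MII library 1 (0.0663). The Tdpoz sum had 1.18 and 3.77 FPKM, against 0 and 0.551 FPKM (1.37 ± 0.388, adjusted p = 0.00957), nearly all of it Tdpoz5. It missed the threshold without labelled Btg4-/- MII library 2 (0.80, adjusted p = 0.13), without wild-type MII library 1 (1.05, adjusted p = 0.0843) and with only the higher locus of each symbol (adjusted p = 0.0715). Pramel1 was listed at 0 in both libraries labelled Btg4-/-, against 0.406 and 0.937 FPKM, with an adjusted p that rounds to the threshold of 0.05 and was above it in 15 of the alternatives.

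In zygotes 3 symbols passed in either direction (background 47.7%), all of them Pramef. The Usp17l sum was listed at 0 in both zygote libraries labelled Btg4-/-, against 0.612 and 1.39 FPKM in wild type (-0.97 ± 0.334, adjusted p = 0.0289). This call was lost without labelled Btg4-/- zygote library 1 or 2 (adjusted p = 0.0976 and 0.0968) and without wild-type zygote library 2 (-0.69, adjusted p = 0.21). The Pramef sum had 326 and 336 FPKM, against 490 and 484 FPKM (-0.56 ± 0.113, adjusted p = 0.00132). The other 5 sums did not pass (adjusted p from 0.374 to 0.848).

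From zygote to 2-cell, 27 of the 28 symbols rose in wild type (background 27.1%) and Pramef12 fell (-2.71 ± 0.116, adjusted p = 2.03e-09). For the 16 symbols that passed the filter through wild-type 2-cell embryos alone the rise was fixed by the filter. Of the other 12, 11 rose. Among them, BB287469, Tdpoz4, Zscan4a and Zscan4c reached a mean of 1 FPKM in the 2-cell groups alone, so the filter favoured their rise too. The sums rose by 6.59 for BB287469, 6.30 for Tdpoz, 5.74 for Pramel, 5.24 for B020004J07Rik, 5.12 for Zscan4 and 4.58 for Usp17l on the log2 scale (SE 0.277 to 0.388, adjusted p = 1.47e-07 or less). Before the 2-cell stage neither BB287469 nor the Pramel sum reached 1 FPKM in any Btg4 library, so the filter favoured these rises as well. In embryos labelled Btg4-/-, 6 symbols rose over the same step (background 18.3%) and 3 fell, all of them Pramef (background 28.2%). Those that rose were BB287469, Tdpoz4, Zscan4a, Zscan4c, Zscan4e and Zscan4f. The first 4 of these reached a mean of 1 FPKM in the 2-cell groups alone, and Zscan4e in wild-type 2-cell embryos alone, so this count is not free of the filter.

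Among the sums, 4 passed for a rise over this step in embryos labelled Btg4-/-. BB287469, whose mean reached 1 FPKM in the 2-cell groups alone, had 0.129 and 0 FPKM in zygotes labelled Btg4-/-, and its step was 2.90 ± 0.277 (adjusted p = 2.88e-06). The Zscan4 sum had 1.61 and 1.76 FPKM in those zygotes and rose by 1.52 ± 0.351 (adjusted p = 0.00333), and the Usp17l sum rose by 1.36 ± 0.334 (adjusted p = 0.00491). The Tdpoz sum had 2.00 and 4.01 FPKM in zygotes and a step of 1.16 ± 0.388 (adjusted p = 0.0271). The Tdpoz step missed the threshold without labelled Btg4-/- zygote library 1 (0.78, adjusted p = 0.212), without labelled Btg4-/- 2-cell library 1 (1.32, 0.0531) or 2 (0.99, 0.133). The steps of Pramel (0.75, adjusted p = 0.126) and B020004J07Rik (0.36, adjusted p = 0.41) did not pass, although both passed without labelled Btg4-/- 2-cell library 1 (1.43, adjusted p = 0.00401, and 0.91, adjusted p = 0.0358). The difference between genotypes in this step was lower in the labelled Btg4-/- embryos for 26 symbols (background 25.9%), a count that again holds the 16 symbols whose direction the filter fixed; of the other 12, 10 were lower and Pramef12 was higher. For the sums it was -5.14 ± 0.549 for Tdpoz, -4.99 ± 0.534 for Pramel, -4.88 ± 0.476 for B020004J07Rik, -3.69 ± 0.392 for BB287469, -3.60 ± 0.497 for Zscan4 and -3.22 ± 0.472 for Usp17l (adjusted p = 0.000118 or less; with a pseudocount of 0.1 Usp17l was at -1.42, adjusted p = 0.408), and for Pramef, which fell less in the labelled Btg4-/- embryos, 0.98 ± 0.16 (adjusted p = 0.000269).

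The steps before the 2-cell stage can be read only for the members with signal there. From GV to MII, 5 symbols rose in libraries labelled Btg4-/- (background 27.3%) and 3 in wild type (background 25.2%); Pramef12 and Pramef8 were in both groups. Near the floor, Zscan4e passed by limma for a fall in libraries labelled Btg4-/- (-0.53 ± 0.194, adjusted p = 0.0415) and Zscan4d in wild type (-0.93 ± 0.27, adjusted p = 0.0106). Zscan4e went from 0.378 and 0.505 FPKM at GV to 0 in both MII libraries, and Zscan4d from 0.582 and 1.53 FPKM to 0 and 0.0977 FPKM. The Pramef sum rose by 3.25 ± 0.113 in libraries labelled Btg4-/- and by 3.33 ± 0.113 in wild type. From MII to zygote, 0 symbols passed in either direction in libraries labelled Btg4-/- by limma (background 15.7%; 0 at an unadjusted p under 0.05). In wild type 1 rose (background 20.5%), Tdpoz5, which had 2.75 and 1.91 FPKM in zygotes, against 0 and 0.551 FPKM at MII (1.41 ± 0.411, adjusted p = 0.0222). The Tdpoz sum over that step (1.41, adjusted p = 0.0169) missed the threshold without wild-type MII library 1 (1.09, adjusted p = 0.122) or wild-type zygote library 1 (1.22, adjusted p = 0.104). The wild-type Zscan4 sum passed for a fall from GV to MII (-0.96, adjusted p = 0.0345) and a rise from MII to zygote (1.10, adjusted p = 0.0331). The fall missed the threshold without wild-type GV library 2 (-0.57, adjusted p = 0.288) or wild-type MII library 1 (-0.76, adjusted p = 0.174), and also without either wild-type 2-cell library (adjusted p = 0.0517 and 0.0505) and with no filter (adjusted p = 0.0586). The rise missed it without wild-type zygote library 2 (0.66, adjusted p = 0.29), wild-type MII library 1 (0.90, adjusted p = 0.169) or 2 (1.31, adjusted p = 0.0569), or wild-type 2-cell library 1 (adjusted p = 0.0504), and under median-of-ratios scaling, quantile normalization or no filter (adjusted p = 0.0597, 0.105 and 0.0576). Under median-of-ratios scaling the median of all symbols in the wild-type step to the zygote moved to 0.04, against 0.22, and the share of calls that were higher to 50.8%, against 71.9%. None of the 7 sums passed for the difference between genotypes in these 2 steps, by limma (adjusted p from 0.0731 to 0.959; 2 sums of 7 at an unadjusted p under 0.05 in the step to MII and 1 of 7 in the step to the zygote).

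In the Erk experiment, with 1 library per group and no test, most members were at or near 0. At GV 4 of the 28 reached 1 FPKM in either library and at MII 6 did; of these, 1 was at least 2-fold higher and 2 were lower at GV in the library labelled Erk-/- (background 50.3% of symbols at least 2-fold apart), and 5 were higher and 1 lower at MII (background 53%). Pramef12 had 267 FPKM in the GV library labelled Erk-/-, against 334 FPKM in wild type, and 126 FPKM at MII, against 52.8 FPKM. Pramef8 had 32.6 FPKM at GV, against 8.24 FPKM, a 3.96-fold ratio, and 8.07 FPKM at MII, against 3.07 FPKM. Pramef8 was thus higher in the library labelled Erk-/- than in its wild type at both stages, and it was also higher in the oocytes labelled Btg4-/- than in theirs. At MII, Tdpoz5 had 5.03 FPKM, Pramel1 2.39 FPKM and B020004J07Rik 2.15 FPKM in the library labelled Erk-/-, and all were listed at 0 in wild type. At GV, Zscan4c and Zscan4f were listed at 0 in the library labelled Erk-/-, against 1.27 and 1.62 FPKM. The Usp17l symbols and BB287469 were listed at 0 in all 4 Erk libraries. Between the experiments Pramef12 ran in opposite directions, with more at GV than at MII in both Erk genotypes and less at GV than at MII in the Btg4 experiment.

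Other genes known for expression in the mouse 2-cell embryo were set beside the members. This list and that of the regulators below were chosen with earlier results of these data known, so they are not independent support. Of 38 such symbols 34 were in the files and 29 entered the fit; 24 were lower in 2-cell embryos labelled Btg4-/-, 0 were higher and 5 did not pass (background 26.4% lower and 22.6% higher), with a median of -3.13, against -0.05 over all symbols tested. Of the 29, 5 entered through wild-type 2-cell embryos alone; of the other 24, 19 were lower. At an unadjusted p under 0.05 limma also called 0 of them higher. By mean level, Sp110 (48.4 and 55.5 FPKM, against 166 and 146 FPKM) and Arg2 (31.3 and 39.7 FPKM, against 48.6 and 44.8 FPKM) led the list and were already present at 127 FPKM or more in GV oocytes. Gm16381 had 3.84 and 5.48 FPKM, against 333 and 324 FPKM, and Tmem92 had 8.57 and 8.91 FPKM, against 183 and 146 FPKM. These 2 had the pattern of the members, low in all libraries of the Btg4 experiment but the wild-type 2-cell pair. Gm4027, named for the words it shares with BB287469, had 8.76 and 0.0002 FPKM, against 88.8 and 70.1 FPKM.

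**Figure D5:**
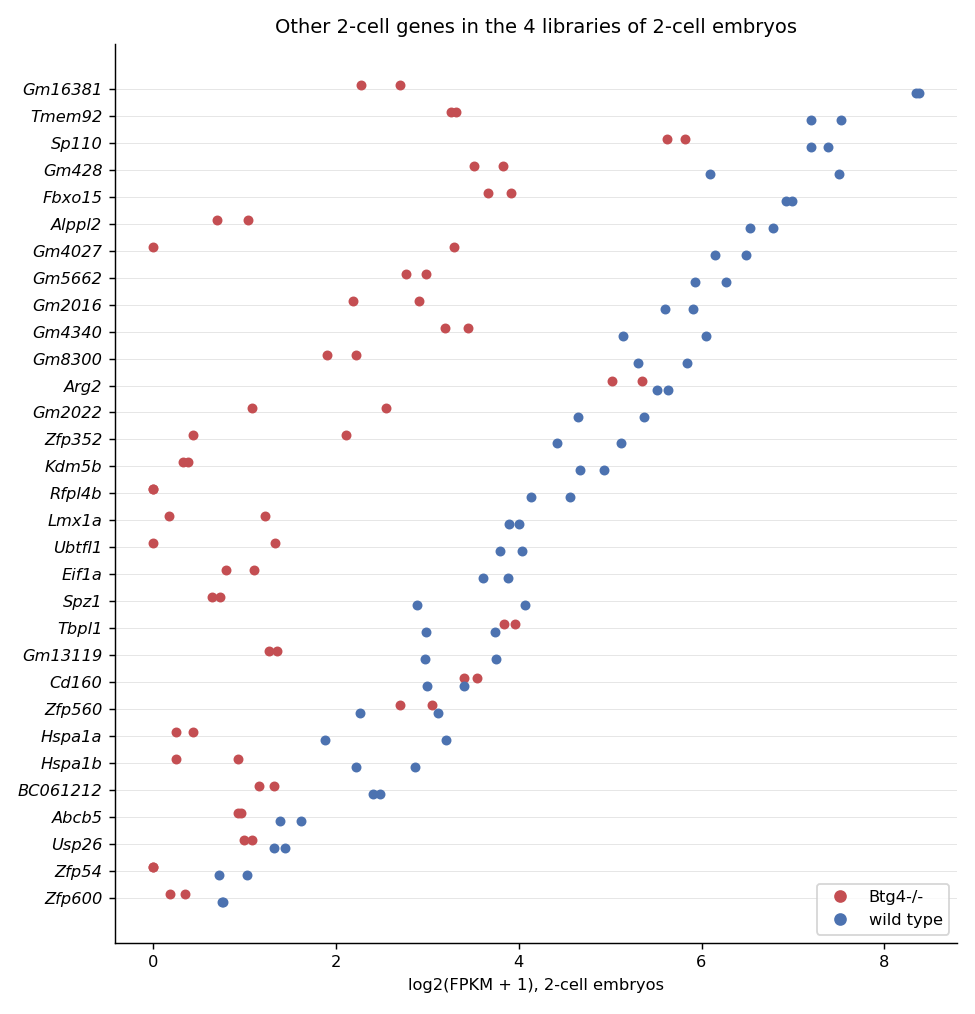
Log2(FPKM + 1) of the 31 other 2-cell genes with a value above 0 in any 2-cell library, ordered by their wild-type mean. Labelled Btg4-/- points lie to the left for most genes, for example Gm16381 (3.84 and 5.48 FPKM, against 333 and 324 FPKM), while Cd160, Zfp560 and Tbpl1 overlap or lie close together.

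Of 32 regulators of 2-cell genes, 29 entered the fit, and at 2-cell 6 were higher, 8 lower and 15 not past the threshold in embryos labelled Btg4-/-, shares near the background of 22.6% higher and 26.4% lower. Dux, the homeobox factor known to activate Zscan4 and the retrotransposon MERVL in the mouse, had 0.399 and 1.18 FPKM in those embryos, against 1.77 and 0 FPKM, and was near 0 at the other stages. Outside the naming rule and picked after their values were seen are Dppa2 and Dppa4. Dppa2, which acts upstream of Dux in mouse embryonic stem cells, had 22.4 and 23.6 FPKM, against 44.0 and 50.8 FPKM (-1.01 ± 0.196, adjusted p = 0.000925), and its partner Dppa4 had 3.42 and 1.03 FPKM, against 64.9 and 64.8 FPKM (-4.46 ± 0.49, adjusted p = 8.94e-06). Earlier, Dppa2 stood the other way: at MII it had 36.7 and 34.0 FPKM when labelled Btg4-/-, against 7.54 and 11.9 FPKM. In zygotes it had 51.3 and 50.0 FPKM, against 23.1 and 22.8 FPKM, and at GV the groups overlapped. The part of either gene in the levels of the members was not tested. Among the regulators with the highest means were Sumo2, Uhrf1 and Rybp. Sumo2, which encodes a SUMO protein, was lower (66.2 and 60.4 FPKM, against 120 and 220 FPKM). Uhrf1, a factor of DNA methylation maintenance, was higher (89.0 and 89.1 FPKM, against 51.4 and 41.0 FPKM). Rybp did not pass (48.4 and 49.8 FPKM, against 61.3 and 48.2 FPKM).

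The genes whose levels over the 16 libraries were most like those of a family were found by Pearson's r of log2(FPKM + 1), given as a description. The points are pairs of libraries of 8 groups. For the Usp17l sum they were Smarca5-ps, Bex6, Gm10662, Spz1 and Gm4971 (r 0.979 to 0.987). For Tdpoz they were Fem1c, Nsun2, Fcgr3, Gm428 and Mcl1 (r 0.956 to 0.968), and for Zscan4 Gm10653, Gm8300, Tmem50b, Gm13109 and Dcdc2c (r 0.948 to 0.957). Mcl1, an inhibitor of apoptosis, had 3.31 and 2.66 FPKM in 2-cell embryos labelled Btg4-/-, against 40.4 and 53.3 FPKM, and Dcdc2c had 12.9 and 10.9 FPKM, against 463 and 436 FPKM. Between the sums themselves, r was 0.882 to 0.973 among the 6 families other than Pramef and -0.329 to 0.0108 between those and Pramef.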

How the data were processed

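RNA-seq libraries of mouse oocytes and embryos were compared on FPKM (fragments scaled to transcript length and library total), the unit the authors deposited. The submitters' processing notes name CASAVA 1.8, TopHat, Cufflinks and the mm9 genome. For the other tools no version is given in the sources used here, nor is an annotation release. Members and gene lists were chosen with earlier results of these data known. Loci sharing a symbol were summed, and family sums replaced their members in a separate table.

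Log2(FPKM + 1) of the 16 Btg4 libraries was fitted with limma 3.58.1 in R 4.3.3 (8 group means, variance trend, two-sided). Symbols with a mean of at least 1 FPKM in at least 1 group entered, and p-values were adjusted by Benjamini-Hochberg over all of them, with a threshold of 0.05. The fit was tested on simulated data. Erk libraries, 1 per group, were compared by ratio alone, with 2-fold as the call. Same-numbered libraries were checked for shared deviations from their group means. Correlations were -0.007 to 0.059, so little shared deviation was seen, which cannot exclude that samples were paired.

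Every family sum and the 3 members of a family with the highest means were to be named, as well as any member past the threshold between genotypes. From related lists, the 4 highest genes and Dux were to be named; 1 of them, and the check of a targeted gene in the Erk libraries, are not reported here. The alternatives were 2 other scalings, a pseudocount of 0.1, no filter, a filter of 5 FPKM, each stage fitted alone, a replicate block, the highest locus per symbol, and each library left out. Read counts were not used here, so depth is known only in relative terms, and an FPKM of 0 gives no fold. Promoters are RefSeq's and shared words were counted in GENCODE vM21 transcripts, both on GRCm38, with Python 3.11.15.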

Additional observations from a re-analysis of the deposited data

Results flagged for a closer look

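The zygote to 2-cell step differed between genotypes for all 7 family sums, by a test of the difference itself (limma, adjusted over all symbols and sums tested). The step was smaller in embryos labelled Btg4-/- by -5.14 for Tdpoz, -4.99 for Pramel, -4.88 for B020004J07Rik, -3.69 for BB287469, -3.60 for Zscan4 and -3.22 for Usp17l, on the scale of log2(FPKM + 1). With a pseudocount of 0.1 the Usp17l difference was -1.42 and did not pass (adjusted p = 0.408). For Pramef the difference was 0.98, since the sum fell by 1.32 in embryos labelled Btg4-/- and fell by 2.30 in wild type. The 7 values share the wild-type 2-cell pair, so they are not independent of each other. Every symbol in the Usp17l and Pramel sums reached a mean of 1 FPKM through that pair alone.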

How the results depend on the processing

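The 2-cell difference of the 6 sums other than Pramef kept its direction and its side of the threshold under all 24 alternatives, with adjusted p up to 0.00542 (BB287469). For Pramef it turned to -0.0879 with quantile normalization, was 0.43 without passing when the stage was fitted alone (adjusted p = 0.0777), and was 0.29 to 0.56 with 1 library left out. Other sums also crossed the threshold. Pramef at MII passed with median-of-ratios scaling (-0.35) and quantile normalization (-0.78), and ranged from -0.263 to -0.215 over libraries left out. Tdpoz at MII was 0.855 with the highest locus per symbol and 0.805 to 1.94 over libraries left out. Its labelled Btg4-/- step to 2-cell was 1.40 with a pseudocount of 0.1, 1.16 with no filter and 0.78 to 1.53 over libraries left out. Usp17l in zygotes was -0.97 with no filter, -0.87 with quantile normalization, -0.845 under median-of-ratios scaling and -1.26 to -0.69 over libraries left out. The Usp17l difference in the step to 2-cell was -1.42 with a pseudocount of 0.1 (adjusted p = 0.408). Zscan4 at GV passed with median-of-ratios scaling (1.28). With 1 library left out, B020004J07Rik was 0.48 to 0.92 at MII and -0.176 to 0.905 in the labelled Btg4-/- step to 2-cell, BB287469 was 0 to 0.78 at MII, and Pramel was 0.065 to 1.43 in that step; each passed in at least 1 of these fits. The cause of these changes was not tested.

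Counts of members moved as well. At GV 1 was higher with no filter, with the stage alone and with the replicate block, and 0 were lower with quantile normalization. At MII 1 was lower with no filter, the stage alone and the replicate block. In zygotes 1 was higher with a filter of 5 FPKM, 3 were lower with a pseudocount of 0.1 and 2 with the replicate block. At 2-cell 0 were higher with quantile normalization. Over libraries left out, 0 to 3 were higher and 0 to 1 lower at GV, 2 to 6 higher and 0 to 2 lower at MII, and 1 to 2 lower in zygotes. Same-numbered libraries showed little shared deviation, which cannot exclude a pairing. With the replicate block the Zscan4 difference at 2-cell was -3.48 (adjusted p = 4e-05, limma). A value that missed the threshold in both fits was counted as unchanged whatever its sign. Values under 1 FPKM are limited by depth, which is known here only in relative terms.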

Other observations

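Relatives of the members that the files list under other symbols were found through RefSeq's names, a list made after values had been seen. They did not all share the pattern. Of 24 PRAME-like symbols, 14 were higher in 2-cell embryos labelled Btg4-/-, 9 were lower and 1 did not pass (over all symbols tested, 22.6% were higher and 26.4% lower). Of these 24, 1 entered through wild-type 2-cell embryos alone, and it was lower. C87414, which RefSeq names Pramel34, had 524 and 561 FPKM, against 161 and 161 FPKM in wild type (1.74, adjusted p = 2.03e-08, limma). Oog1, an oocyte-expressed PRAME-like gene, had 1414 and 1387 FPKM, against 599 and 588 FPKM (1.24, adjusted p = 2.23e-07). By contrast Gm3139, now Pramel42, had 1.29 and 0.723 FPKM, against 56.2 and 50.8 FPKM (-4.78, adjusted p = 7.19e-09). All 3 Tdpoz-like symbols were lower; Gm9125, now Tdpoz9, had 0.428 and 0 FPKM, against 76.0 and 42.8 FPKM (-5.60, adjusted p = 1.28e-08).

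At GV the same 24 PRAME-like symbols gave 4 higher, 2 lower and 18 that did not pass (over all symbols tested, 7.9% passed in either direction; of those calls 18.3% were higher, and 53.5% under median-of-ratios scaling). Gm13103, now Pramel27, had 102 and 94.2 FPKM in GV oocytes labelled Btg4-/-, against 0.698 and 0.542 FPKM in wild type (5.93, adjusted p = 3.73e-07). Gm13088, now Pramel22, had 9.73 and 9.57 FPKM, against 0.939 and 1.01 FPKM (2.43, adjusted p = 0.00134). Both were also above wild type at MII, Gm13103 with 57.7 and 55.3 FPKM, against 0 and 0.460 FPKM.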
